A study of Lathyrus oleraceus with 16 samples.

Results

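Expression in arrested shoot apical meristems of fruiting pea plants was compared with that in active meristems of plants that had been kept from setting seed, both taken on a single day. The libraries were chosen by their labels alone, and 8 of the 16 libraries of the series belong to this comparison, 4 in each group. All plants were wild-type pea (Pisum sativum, listed as Lathyrus oleraceus) of the cultivar Cameor, grown in a greenhouse with 16 h of light at 21.5 °C and 8 h of darkness at 15 °C. Arrested meristems, whose libraries carry the label GPA, were taken just as the plants entered proliferative arrest. Pruned meristems came from plants that had been pruned continuously, so that they never sensed seeds and their meristems did not arrest. The other groups of 4 serve here only for levels: Proliferative meristems came from young plants before the opening of any flower, and Reactivated meristems were collected 24 h after the removal of every fruit and flower from arrested plants. Apices were dissected by eye, so leaf and bud tissue can remain in a library. Per the labels the replicates are biological; how many apices went into each library is not stated.

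Proliferative arrest is the stop in flower production that ends the reproductive phase of many plants that fruit once. In pea the apex stays in place and stops making new nodes and flowers, and the stop depends on developing seeds: plants whose flowers or fruits are removed keep flowering, and an arrested apex can resume growth once its fruits are taken away. The state has been likened to bud dormancy, and studies of arrest, mostly in Arabidopsis, have linked it to lower cell division and cytokinin response and to a higher abscisic acid response. The comparison asks how the arrested apex differs from an active apex of equal calendar age that was not under the influence of seeds. Seeds, pruning and meristem activity all differ between the groups and cannot be told apart here.

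The deposited values are raw counts of reads for 48559 gene IDs. None of the IDs matched the RefSeq gene table used here (0 of 48559), so genes have no names or known roles in the account that follows, and markers of division, hormones, dormancy, leaves or flower buds were not analysed. The label "arrested" was therefore not checked against marker genes. Totals ran from 16264221 to 24435174 counts in Arrested and from 17459226 to 21462529 in Pruned, and counts of 1 or more were found for 25498 to 26530 genes in Arrested and for 26477 to 27296 in Pruned. Log2 CPM, in which CPM is a gene's count per 1000000 counts of its library, correlated between Arrested libraries at r of 0.965 to 0.977 across genes, between Pruned libraries at 0.936 to 0.962, and between libraries of different groups at 0.696 to 0.768; genes are not independent replicates. Pruned 2 held 81 genes with 10 or more counts that had at most 1 count over the other 7 libraries, against 1 to 15 such genes in each of those. These 81 genes took 17507 counts in Pruned 2, and the same genes had 16299 counts in Proliferative 3. None of them passed the filter for testing (0 of 81), and the main counts below are also given without Pruned 2.

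Most genes differed between arrested and seedless meristems. Of 23979 genes with enough counts to test, 68.2% were called, 7568 as higher in Arrested (31.6%) and 8777 as lower (36.6%). A call here is an adjusted p under 0.05 in the quasi-likelihood test of edgeR, adjusted by the Benjamini-Hochberg method over all tested genes. Because differences of any size counted there, a second test asked which genes differed by more than 2-fold (edgeR's glmTreat, adjusted p under 0.05). It called 31.7% of the tested genes, 3288 as higher (13.7%) and 4304 as lower (17.9%), so 4280 of the higher and 4473 of the lower genes differed without being shown to differ by more than 2-fold. Without Pruned 2, 7263 genes were higher and 8550 lower at any size, and 3192 and 4134 by more than 2-fold. In whole apices, fewer cells of a type and less RNA per cell cannot be told apart, and this holds for each gene below.

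Over all tested genes the median log2 fold change was -0.10 with TMM factors and 0.10 with library totals. Among the genes chosen by the 2-fold test, which sets how small a difference can be, those higher had a median log2 fold change of 2.36, with quartiles of 1.75 and 3.53 and a median standard error of 0.30. Those lower had a median of -2.48, with quartiles of -3.80 and -1.76 and a median standard error of 0.27. In these medians, 64 higher and 146 lower genes that had 0 counts in one group were set to the bound given by 3 counts over that group. Among all called genes, 1020 of the higher and 1047 of the lower differed by less than 1.5-fold, 2615 and 2975 by 2-fold to 4-fold, and 1123 and 1677 by more than 8-fold. The classes under 2-fold were close to balanced between the directions, while the class over 8-fold held 14.8% of the higher and 19.1% of the lower genes.

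**Figure D1:**
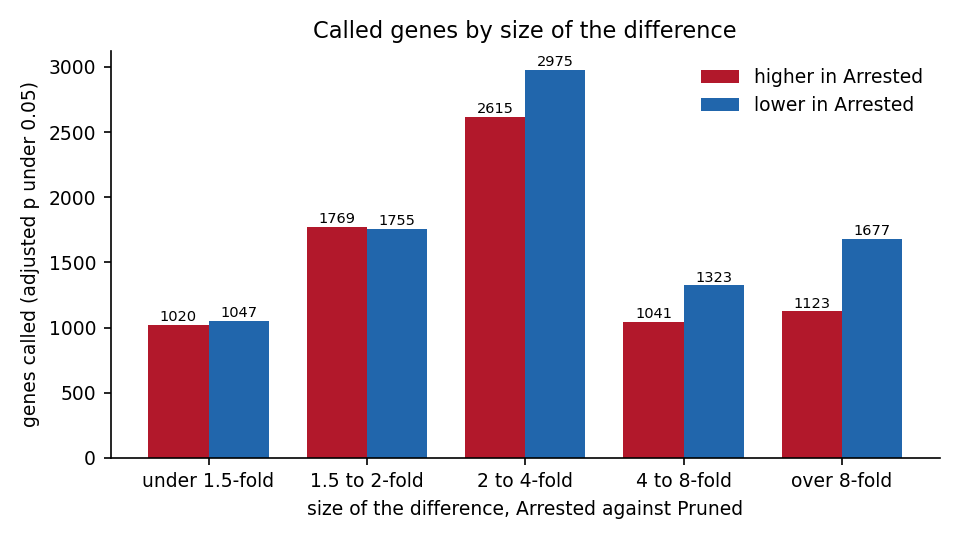
Number of genes called between Arrested and Pruned (vertical axis, genes with adjusted p under 0.05) in 5 classes of fold difference (horizontal axis), with higher and lower genes side by side. The class of 2-fold to 4-fold is the fullest in both directions, with 2615 higher and 2975 lower genes, and the lower genes outnumber the higher ones most in the class over 8-fold, 1677 to 1123.

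The balance between the directions depended on the scaling of the libraries. TMM factors, which rest on the assumption that most genes do not differ, were 1.13 to 1.24 in Arrested and 0.966 to 1.08 in Pruned. With 68.2% of the tested genes called, this assumption may not hold here. With TMM factors 46.3% of all calls and 43.3% of the calls over 2-fold were higher in Arrested. When libraries were scaled by their totals, these shares were 54.7% and 53.1%. The change of scaling moved the fold changes upwards by a median of 0.20 on the log2 scale, which favours calls of higher genes. With library totals 8945 genes were higher and 7415 lower at any size, and 4058 higher and 3580 lower by more than 2-fold. All 3288 genes called over 2-fold higher were also called so with library totals, and 3580 of the 4304 lower genes (83.2%) were. No called gene changed to a call in the other direction, 0 of 7568 higher and 0 of 8777 lower. An upward move of this small size leaves little room for such changes, so nothing is read from their absence.

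Genes at every level of expression took part. Genes were classed by their mean CPM over the 8 libraries, which is not corrected for gene length. At 10 to 100 CPM, the class with most genes (12193), 13.6% were higher by over 2-fold and 15.04% lower by over 2-fold in Arrested, and the median log2 fold change of the class was -0.0014. At 1 to 10 CPM the shares were 14.8% and 19.5% of 7681 genes. The classes of highest and lowest CPM were tilted most towards the lower side. Of 2124 genes above 100 CPM, 298 (14.03%) were higher and 537 (25.3%) lower by more than 2-fold. The median log2 fold change of that class was -0.34. Library totals, which move all classes by about the same amount, gave this class a median of -0.14 and the class of 10 to 100 CPM a median of 0.20. Below 1 CPM, 9.89% of 1981 genes were higher and 21.8% lower by more than 2-fold. The median log2 fold change there was -0.69, and -0.50 with library totals. The filter for testing used all 16 libraries, so a gene of low CPM could pass through any group, also Proliferative or Reactivated. Genes low in Arrested but not in the active groups could thus enter the class below 1 CPM more easily. Its tilt is therefore shaped by the filter, and nothing is read from it. The median standard error below 1 CPM was 0.73, against 0.15 above 100 CPM.

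**Figure D2:**
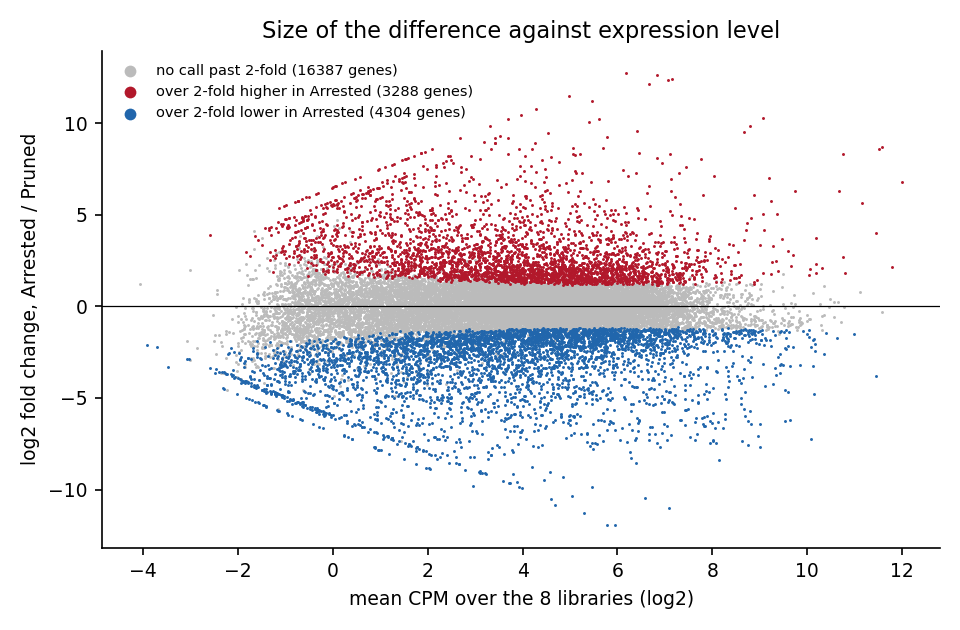
Log2 fold change of Arrested over Pruned (vertical axis) against the mean CPM over the 8 libraries (horizontal axis, log2) for each of the 23979 genes tested, with genes at 0 counts in one group placed at their bound. Called genes in both directions, 3288 above and 4304 below, lie along the whole range of levels.

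The single libraries of the groups were also set against each other. All 4 Arrested values lay above all 4 Pruned values in CPM for 3249 of the 3288 genes over 2-fold higher (98.8%), and below them for 4069 of the 4304 genes over 2-fold lower (94.5%). The genes were called on these same 8 libraries, so these shares are a description. Over all tested genes, 61.7% were separated in this way: 8360 (34.9%) had every Arrested value above every Pruned value and 6443 (26.9%) below, with CPM by library totals. With CPM scaled by TMM factors these counts were 7056 and 7819. With CPM by library totals, set against calls that rest on TMM factors, 282 genes called higher and 2344 called lower had overlapping values, while 1074 genes were separated above and 10 below without a call in that direction.

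For some genes the interval of the fold change was confined to small differences. For 7254 of the 23979 genes (30.3%) the 95% interval of the fold change lay within 2-fold in either direction, and for 2660 (11.1%) it lay within 1.5-fold. These intervals hold for each gene alone and, unlike the calls, are not adjusted over the tested genes. Of the 7254 genes, 2710 were still called as differing. With library totals 7086 genes were bounded within 2-fold, and 6077 genes were so on both scales. The remaining 9133 genes (38.1%) were neither called over 2-fold nor bounded within 2-fold, so that these libraries do not place them on either side. Of the 7634 genes without a call, absence of a call does not show that the level was equal.

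Single genes show what these numbers look like library by library. The files do not pair the IDs with names, so only 2 higher and 2 lower genes are given: those with the highest mean CPM among the 3248 higher and 4056 lower genes that passed the 2-fold test without overlap between the groups and were called the same way with library totals and with DESeq2. Psat3g011320 had 7319, 7968, 9868 and 7152 CPM in Arrested 1 to 4, against 67.1, 64.9, 55.6 and 66.6 CPM in Pruned 1 to 4. The lowest Arrested library was thus far above the highest Pruned library, and the gene collected more reads than any other in Arrested while it stood at place 3518 in Pruned. It averaged 8077 CPM ± 1245 in Arrested and 63.5 ± 5.37 in Pruned (SD, n = 4 each), a 110.02-fold difference (log2 fold change 6.78, SE 0.34, edgeR quasi-likelihood adjusted p = 9.38e-11). Psat3g011320 alone took 0.811% of all Arrested counts and 0.00639% of all Pruned counts.

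Psat2g028520 was high in both groups and higher in Arrested. It had 5291, 5720, 5426 and 7245 CPM in Arrested 1 to 4 and 1173, 1234, 1157 and 1121 CPM in Pruned 1 to 4. The groups did not overlap, and Arrested 4 was the highest library. The difference was 4.39-fold (log2 fold change 2.14, SE 0.17, edgeR quasi-likelihood adjusted p = 1.71e-08), with a place of 3 among genes ranked by CPM in Arrested and of 52 in Pruned.

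Psat0s1212g0160 collected more reads than any other gene in Pruned and stood at place 215 in Arrested. It had 304.1, 286.1, 305.3 and 770.5 CPM in Arrested 1 to 4, against 4981, 5928, 5660 and 4151 CPM in Pruned 1 to 4. Every Arrested library was below every Pruned library, and Arrested 4 stood apart from the other 3 Arrested libraries, which were close together. The gene was 14.2-fold lower in Arrested (log2 fold change -3.83, SE 0.41, edgeR quasi-likelihood adjusted p = 4.61e-07), and the log2 fold change was -4.35 without Arrested 4.

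Psat0s194g0080 had 1161, 1152, 1189 and 1158 CPM in Arrested 1 to 4, against 3229, 2824, 2783 and 2778 CPM in Pruned 1 to 4. The Arrested values were nearly the same in each library, with an SD of 16.1 CPM around a mean of 1165, against 218.2 around 2903 in Pruned (n = 4 each). The gene was 2.88-fold lower (log2 fold change -1.53, SE 0.11, edgeR quasi-likelihood adjusted p = 6.28e-09), a smaller difference than in the other 3 genes and the one with the smallest standard error of the 4. Scaled by library totals, the log2 fold changes of the 4 genes, in the order given, were 6.99, 2.34, -3.64 and -1.32.

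The levels of these genes in meristems outside the comparison differed from gene to gene. Psat3g011320 averaged 370.8 CPM ± 180.2 in Proliferative and 14.7 ± 0.519 in Reactivated, so all 8 of these libraries were below all Arrested libraries, and Pruned lay between Proliferative and Reactivated. Psat2g028520 averaged 2275 CPM ± 461 in Proliferative and 336.4 ± 40.3 in Reactivated, again with Pruned between them. Psat0s1212g0160 averaged 2891 CPM ± 996 in Proliferative, between the Arrested and Pruned means, and 797.1 ± 355.8 in Reactivated, where 3 of 4 libraries lay at or below the 770.5 CPM of Arrested 4. Psat0s194g0080 averaged 3338 CPM ± 236 in Proliferative and 2819 ± 202 in Reactivated, and all 8 of these libraries were above all Arrested libraries (SD, n = 4 throughout).

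**Figure D3:**
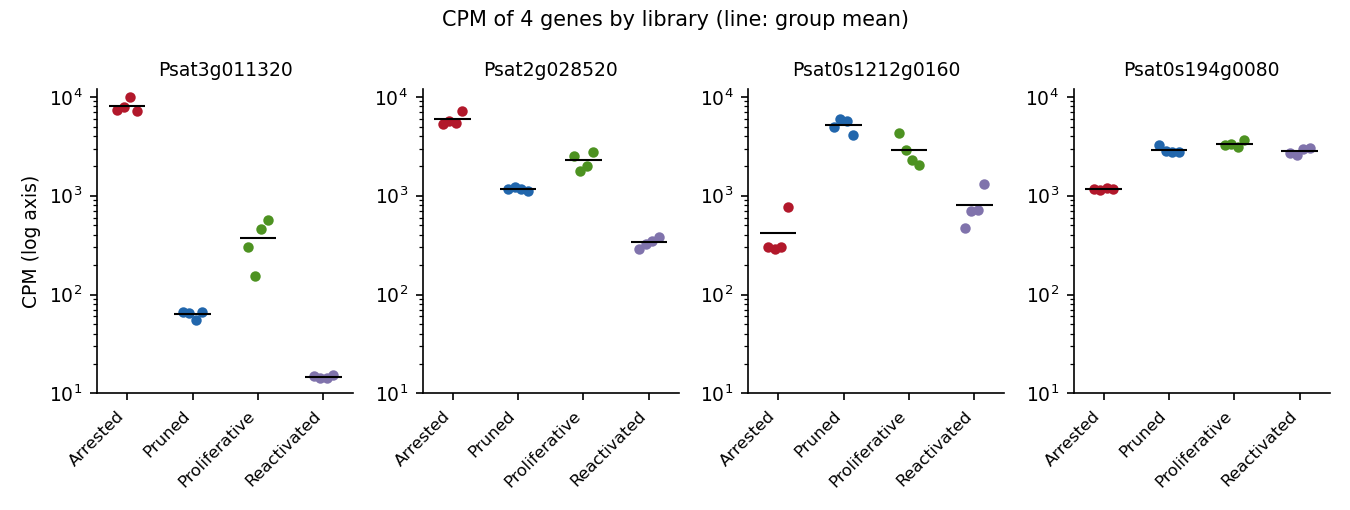
CPM of the 4 genes (vertical log axis, the same in each panel) in the 4 libraries of each group (points), with the group mean as a line. Arrested and Pruned libraries do not overlap in any panel, and Psat0s1212g0160 in Arrested 4 (770.5 CPM) lies above the other 3 Arrested libraries.

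The genes called over 2-fold in either direction accounted for a large part of all counts. Those higher in Arrested (3288) took 24.6%, 27.5%, 27.9% and 27.7% of the counts of Arrested 1 to 4, against 4.18%, 4.18%, 4.49% and 3.96% of those of Pruned 1 to 4. The 4304 lower genes took 8.93%, 8.37%, 7.93% and 8.70% in Arrested 1 to 4, against 36.9%, 36.5%, 33.5% and 34.6% in Pruned 1 to 4. Shares of counts do not depend on TMM factors, but the genes were chosen on these 8 libraries, so the direction and the size of these shares are a description and carry no test. In the higher set, 165 of the 3288 genes held 50% of that set's Arrested counts. In the lower set, 248 of the 4304 genes held 50% of that set's Pruned counts. Whole libraries were similar: 50% of all counts lay in 1618 to 1859 of 25498 to 26530 detected genes in Arrested. For Pruned it was 1142 to 1593 of 26477 to 27296 detected genes. The concentration is therefore not read as particular to these sets.

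The Proliferative and Reactivated libraries did not enter the choice of direction, and in both sets they lay near Pruned. The higher genes took 4.54% to 6.29% of counts in Proliferative and 2.82% to 3.07% in Reactivated. The 4 Proliferative libraries were all above the highest Pruned library, and the 4 Reactivated libraries all below the lowest, with Arrested far above all of them. The higher genes were chosen in part for low Pruned values, which favours other groups above Pruned. Shares rest on library totals, and TMM factors were 0.760 to 0.845 in Reactivated, against 0.966 to 1.08 in Pruned. With TMM, the median log2 CPM of these genes overlapped, 1.67 to 1.99 in Reactivated and 1.69 to 1.92 in Pruned. Nothing is read from the order of these 3 groups. The lower genes took 32.4% to 33.9% in Proliferative and 33.1% to 36.0% in Reactivated, both overlapping the 33.5% to 36.9% of Pruned. The median level of the higher genes was 4.40 ± 0.12 log2 CPM in Arrested and 1.84 ± 0.11 in Pruned, with 2.26 ± 0.23 in Proliferative and 1.84 ± 0.13 in Reactivated. That of the lower genes was 1.55 ± 0.11 in Arrested and 4.35 ± 0.07 in Pruned, with 4.17 ± 0.13 in Proliferative and 3.99 ± 0.10 in Reactivated (SD over libraries, n = 4). The median of all tested genes was 3.44 to 3.47 log2 CPM in the Reactivated libraries and 3.61 to 3.69 in the libraries of the other groups. The Reactivated medians above are not corrected for this lower general level.

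**Figure D4:**
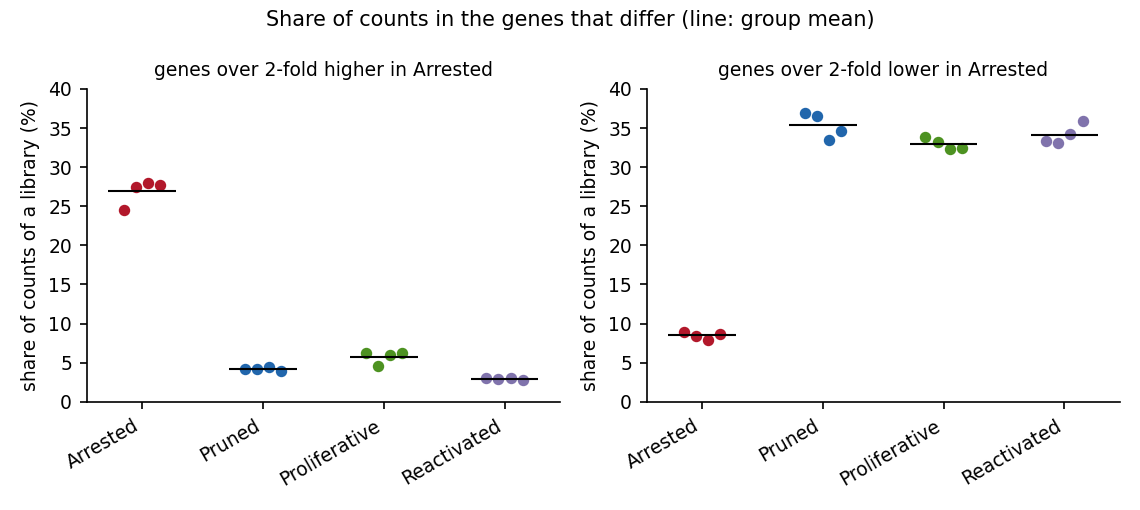
Share of a library's counts (vertical axis, percent) in the genes called higher (left, 3288 genes) and lower (right, 4304 genes) by more than 2-fold in Arrested than in Pruned, for each library (points) of the 4 groups, with the group mean as a line. Arrested lies between 24.6% and 27.9% on the left and between 7.93% and 8.93% on the right, apart from the other 12 libraries in both panels.

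The genes with most reads differed between the groups. Of the 100 genes with the highest mean CPM in Arrested and the 100 in Pruned, 35 were shared. The top 100 of Arrested took 14.7% ± 0.87 of counts in Arrested and 6.64% ± 0.46 in Pruned, and the top 100 of Pruned took 6.42% ± 0.39 in Arrested and 13.3% ± 1.17 in Pruned (SD, n = 4). Among the top 100 of Arrested, 48 were called higher and 4 lower by more than 2-fold, and among the top 100 of Pruned, 56 were called lower and 1 higher, where 13.7% and 17.9% of all tested genes were higher and lower. Ranking by one group favours genes that are higher in it, so nothing is read from this excess. The top 100 genes of Arrested had a median place of 329.5 in Pruned, and those of Pruned a median place of 143.5 in Arrested.

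In Arrested the 10 leading genes held a larger share of the counts than in Pruned, and the 900 genes that follow the top 100 held a smaller one. The 10 genes with most counts held 4.29% to 5.32% of an Arrested library and 2.43% to 2.88% of a Pruned library. The next 90 genes held 9.40% to 10.3% in Arrested and 9.83% to 12.1% in Pruned, and the following 900 genes 24.6% to 25.7% in Arrested and 28.5% to 32.8% in Pruned. To reach 50% of the counts, 1859, 1805, 1724 and 1618 genes were needed in Arrested 1 to 4, against 1142, 1326, 1593 and 1589 in Pruned 1 to 4. These values did not overlap, with means of 1752 ± 105 in Arrested and 1413 ± 219 in Pruned (SD, n = 4), but the difference of 339 did not pass after adjustment over the 2 measures tested (two-sided exact permutation test, p = 0.0286, the smallest that 4 against 4 libraries allow, Benjamini-Hochberg adjusted p = 0.0571). The effective number of genes, the exponential of the Shannon entropy of the count shares, was 7494 ± 377 in Arrested and 7101 ± 639 in Pruned and overlapped between the groups (two-sided exact permutation test, n = 4 each, p = 0.343, adjusted p = 0.343). Without the 10 leading genes of each library both measures passed, with 454 more genes needed for 50% of the counts and 1076 more effective genes in Arrested (two-sided exact permutation test, adjusted p = 0.0286 for each). Leaving these genes out removes a larger share from Arrested than from Pruned, which by itself makes Arrested more even. It was 1 of 12 alternatives, and the other 11 did not change the main outcome, so this pass is not read as support.

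**Figure D5:**
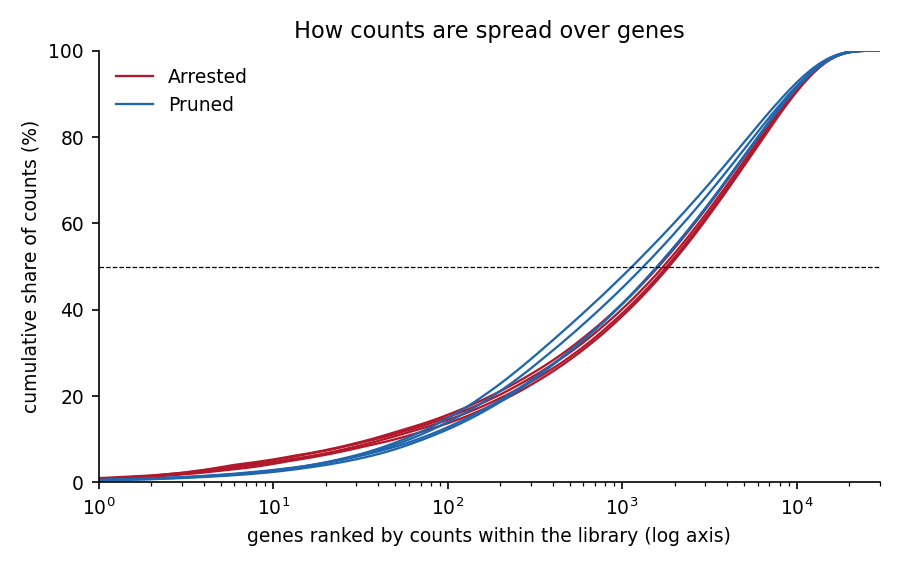
Cumulative share of a library's counts (vertical axis, percent) against the number of genes taken in order of their counts (horizontal log axis), with 1 line per Arrested or Pruned library and a dashed line at 50%. Arrested lines run above Pruned lines among the first genes and below them near the dashed line, and cross the dashed line at 1618 to 1859 genes, against 1142 to 1593 in Pruned.

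The typical spread of a gene between libraries of a group was smaller in Arrested. Over 21998 genes with a mean of at least 1 CPM in the 8 libraries, the SD of log2 CPM within a group had its median at 0.21 for Arrested and at 0.28 for Pruned, with 0.29 in Proliferative and 0.25 in Reactivated. The SD was larger in Arrested than in Pruned for 8050 genes (36.6%), and it exceeded 0.5 for 3303 genes in Arrested and for 4621 in Pruned. The difference in spread was not tested.

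A small number of genes was on in one group and silent in the other, where on means at least 1 CPM in each of the 4 libraries and silent means at most 3 counts over the 4 libraries. Against 18195 genes on in both groups, 104 were on in Arrested and silent in Pruned, and 49 were on in Pruned and silent in Arrested. Most of these genes were expressed at low levels. The 104 genes had a median of 4.92 CPM in Arrested, from 1.25 to 282.3, and 27 of them exceeded 10 CPM. The 49 genes had a median of 4.17 CPM in Pruned, from 1.21 to 124.3, and 7 of them exceeded 10 CPM. The 104 genes took 0.155% to 0.225% of the counts of an Arrested library, and the 49 genes 0.0255% to 0.0620% of those of a Pruned library, so on and off genes made up little of the shares described above. In Proliferative, 94 of the 104 genes had 1 or more counts, with a median level of 0.155 CPM, and all 49 of the other genes did, with a median of 2.18 CPM.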

How the data were processed

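Shoot apical meristem RNA of pea was sequenced in 4 groups of 4 libraries, from strand-specific libraries of polyadenylated RNA, per the labels' protocols. The authors deposited raw counts of reads per gene, 1 table for all libraries. The tools named, per the submitters' processing notes, are HTSeq, HISAT2, DESeq2 and cutadapt, without versions. The deposited table is named as HTSeq counts made without regard to strand, so a gene and an antisense or overlapping neighbour cannot be told apart, and near-identical copies are uncertain. Genome build and annotation are not given in the sources used here. No row named something other than a gene (0 of 48559).

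Counts were analysed with edgeR 4.0.16 in R 4.3.3. Genes passing filterByExpr by group (23979, holding at least 99.7% of the counts of each of the 8 libraries) were scaled with TMM, and all 16 libraries entered a quasi-likelihood fit with group as the only term. Arrested minus Pruned was tested for any difference and, with glmTreat, for one over 2-fold. Standard errors are the log2 fold change divided by the square root of F. CPM uses library totals, and log2 CPM uses TMM and a prior count of 2. The code was tested on simulated data in which few genes were changed, evenly in both directions. That test does not cover scaling where most genes differ. Alternatives were DESeq2 1.42.0, its size factors, library totals, no filter, the 8 libraries alone, a replicate block and leaving out each library. The members and rules were chosen with earlier results of these data known. Samples with equal replicate numbers did not deviate together (r of -0.293, 0.00960, 0.00304 and -0.239 for numbers 1 to 4), so the numbers were not taken as pairs. Between unequal numbers r ran from -0.164 (Arrested 4 with Pruned 3) to 0.295 (Arrested 1 with Pruned 4). Some variation was thus shared between libraries of the 2 groups, and its source was not tested. With no batch in the labels, p-values measure the spread between these libraries, which may be technical in part.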

Additional observations from a re-analysis of the deposited data

Results flagged for a closer look

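In 30 groups of 4 values examined (named genes and values per library in Arrested and in Pruned), 6 held a library that stood apart, its gap to the nearest other library exceeding 0.829 of the range. Chance gives about 1 in 20 such groups where values are independent and normally spread. Some values here are skewed counts, and some describe the same genes, so 6 of 30 is not read as an excess. Psat0s1212g0160 had 770.5 CPM in Arrested 4, against 286.1 to 305.3 in the other 3 Arrested libraries. Psat0s194g0080 had 3229 CPM in Pruned 1, against 2778 to 2824 in the other 3 Pruned libraries. Genes over 2-fold higher in Arrested took 24.6% of counts in Arrested 1, against 27.5% to 27.9% in Arrested 2 to 4, and their median level there was 4.23 log2 CPM, against 4.44 to 4.48. Pruned 2 held 81 genes seen almost nowhere else in the 8 libraries, against 1 to 10 in the other Pruned libraries, and 0.0896% of its counts fell in them. Arrested 2 held 15 such genes, against 1 to 3 in the other Arrested libraries. The 2-fold test called 3282 genes higher and 4289 lower without Arrested 1, and 3192 and 4134 without Pruned 2.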

How the results depend on the processing

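The counts of genes stayed within 1.5 times their main value in all 14 alternatives. Genes higher at any size ran from 7181 to 8945 and genes lower from 7415 to 9366, and over 2-fold they ran from 2733 to 4058 and from 3466 to 4604. Leaving out single libraries gave 7181 to 7506 higher and 8374 to 8839 lower genes at any size, and 3066 to 3328 and 4058 to 4317 over 2-fold. The lowest counts over 2-fold, 2733 and 3466, came from DESeq2. The majority turned from lower to higher with library totals, and at any size also with only the 8 libraries fitted (7933 higher and 7760 lower, but 3554 and 3631 over 2-fold). With the replicate block the counts were 7391 higher and 8531 lower at any size and 3223 and 4143 over 2-fold. The block changed no call of a named gene or of the values per library. The 4 named genes kept their direction and their call in all 14 alternatives. Calls with library totals and with DESeq2 were part of their choice. The other 12 alternatives refit the same counts, in which these genes were chosen for not overlapping between the groups. Their kept direction is therefore no independent check. Without the 10 leading genes, the difference in genes needed for 50% of counts (454) and in effective genes (1076) passed, which the main values of 339 and 392.8 did not. Those 10 genes held a larger share of counts in Arrested than in Pruned, so leaving them out acts unequally on the groups. The cause was not tested. Leaving out single libraries moved these differences between 248.8 and 399.2 genes and between 124.4 and 577.5 effective genes, the lowest values coming without Pruned 1. With 4 against 3 libraries, or 4 pairs, these exact tests cannot pass (smallest p 0.0571 and 0.125).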
